A study of Homo sapiens with 14 samples.

Results

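LNCaP cells, a human prostate cancer line from a lymph node metastasis, were given 50 µM dilazep or a vehicle for 48 h, and every gene detected on their arrays was compared. LNCaP accounts for 7 of the 14 arrays of the study: 3 dilazep arrays (replicates 1, 2 and 4), 2 H2O arrays (replicates 1 and 3) and 2 DMSO arrays (replicates 2 and 3). All of these cells grew in medium with 10% fetal bovine serum. The other 7 arrays hold LNCaP-abl, a subline grown in 10% charcoal-stripped serum, and serve here only for tests of a difference between the lines, in which line and serum cannot be told apart. The labels do not say which vehicle belongs to dilazep, so a change is the dilazep mean minus the average of the H2O and DMSO means. The treatment text of the vehicle arrays names bufalin, another compound, so dilazep and vehicle arrays may come from separate experiments, and treatment and experiment cannot then be told apart. Whether replicates came from separate cultures is not stated, and the p-values cover no more than the array-to-array spread, which may be technical.

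Dilazep is a vasodilator that blocks the equilibrative nucleoside transporters, through which cells take up adenosine and other nucleosides. LNCaP is of luminal type and makes secreted products of prostate epithelium. A growing culture of this kind expresses the genes of cell division, and it both makes sterols and takes them up from serum.

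Levels are log2 normalized intensities, and each gene stands for 1 probe. A gene was tested where a probe had a detection p-value under 0.05 on at least 2 of the 7 arrays, which gave 11314 genes. Between 18482 and 19856 probes were detected per array (39.1% to 42%), with fewer on each dilazep array than on any vehicle array. The number of arrays limits the precision, and the median SE of a change was 0.12. On the first principal component (70.1% of the variance) the dilazep arrays lay at 28.2 to 41.4 and the vehicle arrays at -28.3 to -24. On the second (9.16%), dilazep replicate 4 stood apart at 20, against -14.6 and -9.21 for replicates 1 and 2. It lay over 0.5 above both other dilazep arrays for 494 genes and below both for 209. The same numbers were 223 and 163 for replicate 1, and 152 and 101 for replicate 2.

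After dilazep, 4920 of 11314 genes (43.5%) differed at a limma adjusted p under 0.05, which is what "called" means here. Of these, 2721 were higher (24.0% of the genes) and 2199 lower (19.4%). Without dilazep replicate 4 these counts were 2412 and 1880, and in a fit that blocks on replicate number 1757 and 1360. The block leaves fewer residual degrees of freedom than the 4 of the main fit. In it dilazep replicate 4, alone with its number, adds nothing to the comparison. The means of 882 called genes (7.80%) lay at least 1 apart, 453 of them higher and 429 lower. That size depends on the background correction, and in the authors' processed values 150 and 112 genes reached it. Among changes of at least 2, 36 genes were lower and 18 higher. All 3 dilazep arrays lay above all 4 vehicle arrays for 3094 genes (27.3%) and below them for 2488 (22.0%), or 49.3% together. The median change over all genes was 0.05 and the median absolute change 0.32. Between the vehicles, limma called no gene (0 of 11314, 0%), with 551 genes at an unadjusted p under 0.05 and a median absolute difference of 0.12.

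Falls were called more often at high than at low vehicle levels. Genes near background have little room to fall, and how much of this contrast the floor sets was not tested. Among the 2828 genes with the lowest vehicle levels, 4.48 to 6.27, 18% were called higher and 8.59% lower. Among the 2829 with the highest, 9.63 to 14.73, 23.1% were called higher and 27.9% lower. Bright genes that fell included TUBA1C, an alpha-tubulin (-1.07), RANBP1, a partner of the nuclear transport GTPase RAN (-1.32), HNRNPA2B1, an RNA-binding protein (-1), and LSM3, a splicing factor (-1.05). A second TUBA1C probe gave -0.11 and was not called, and other HNRNPA2B1 probes gave -0.13, -0.15 and -0.35, of which the last was called. SCD, which desaturates fatty acids, rose by 1.18, from 13.11 to 13.21 on the vehicle arrays to 14.31 to 14.37 on the dilazep arrays.

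**Figure D1:**
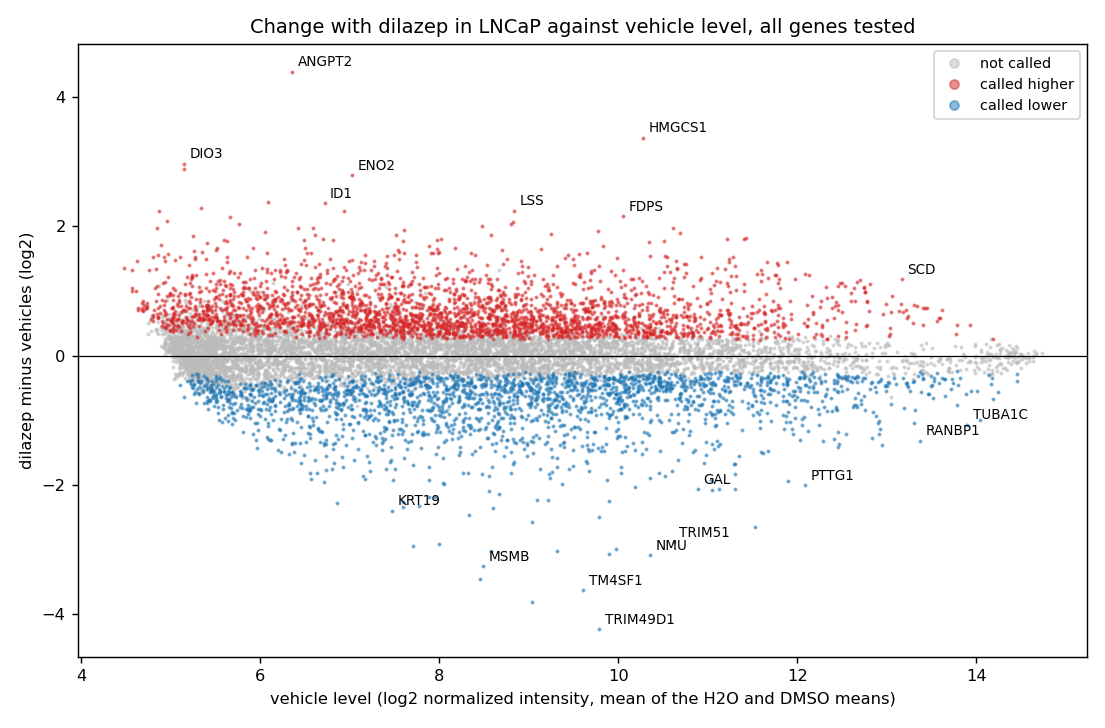
Change with dilazep (log2, vertical axis) against the vehicle level (log2 normalized intensity, horizontal axis) for the 11314 genes tested in LNCaP, coloured by call. ANGPT2 stands at 4.39 and TRIM49D1 at -4.23, and called genes are found across the range of levels.

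Among secreted factors, ANGPT2, a ligand of the endothelial TIE2 receptor that loosens vessels, moved most. Its level was 6.19, 6.49, 6.43 and 6.34 on the H2O and DMSO arrays, and 10.85, 10.81 and 10.59 on the dilazep arrays. The dilazep arrays lay far above all vehicle arrays and close to each other. The change was 4.39 (SE 0.12, limma adjusted p = 7.3e-06), or 20.9-fold, and 2 other probes of the gene rose by 4.02 and 2.82. The probe used was detected on none of the LNCaP-abl arrays (0 of 7), and the difference between the lines was 4.04 (limma adjusted p = 5.6e-08).

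Of the 25 growth and vessel factors tested, ANGPT2 included, 7 were called higher (28%) and 6 lower (24%), near the 24.0% and 19.4% of all genes. VEGFB, a vascular growth factor, rose by 1.87 (SE 0.13, limma adjusted p = 0.00012), from 8.25 to 8.83 on the vehicle arrays to 10.4 to 10.55 on the dilazep arrays. HBEGF, a ligand of the EGF receptor, rose by 1.44, against 2.71 in LNCaP-abl (adjusted p of the difference = 0.00013). STC2, a secreted glycoprotein, fell by 0.9, from 10.15 to 10.28 to 9.28 to 9.41. VWF, the clotting factor of endothelial cells, was at 8.35 to 8.65 on the vehicle arrays and fell by 1.83 (adjusted p = 6e-05). It was the 1 gene tested of 7 endothelial markers, of which only 2 had a probe with a gene name.

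**Figure D2:**
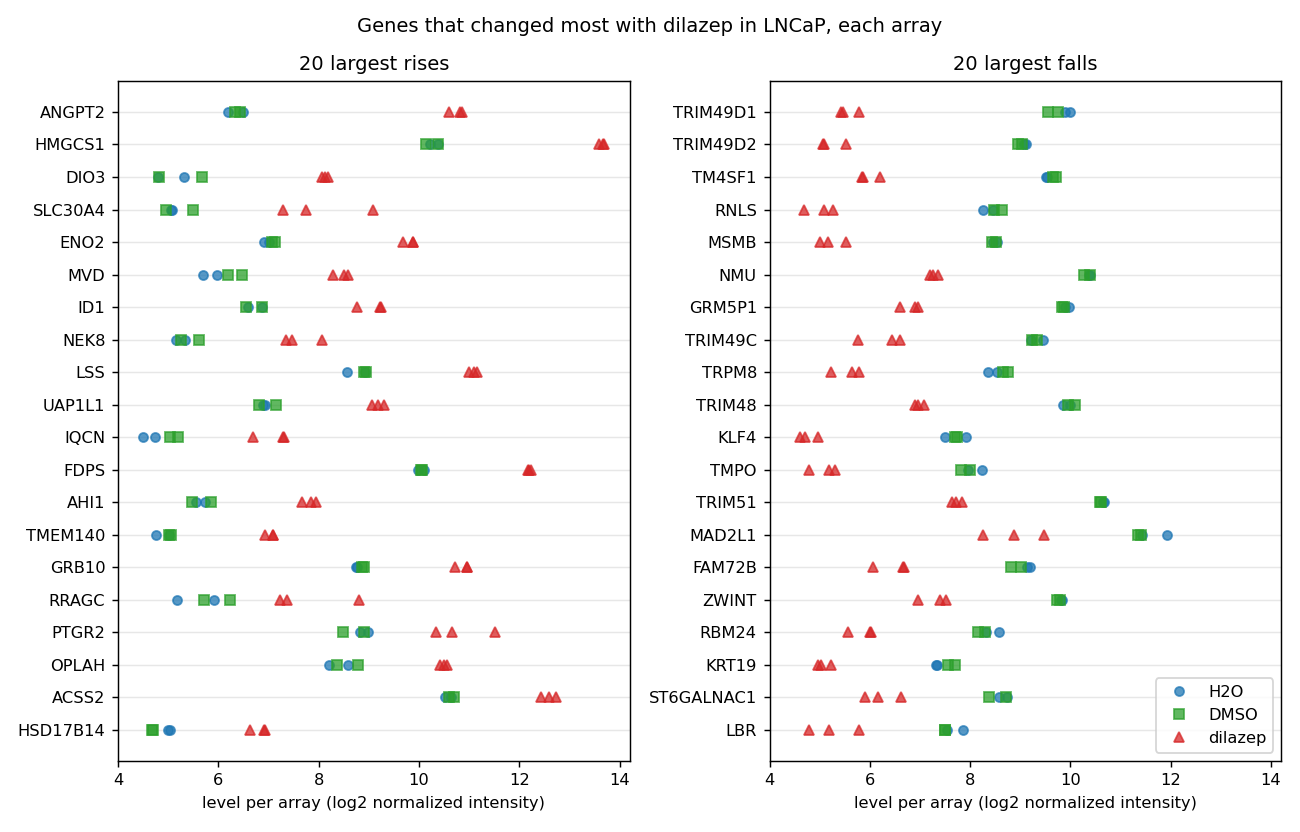
Level on each LNCaP array (log2 normalized intensity) of the 20 genes with the largest rises (left) and the 20 with the largest falls (right) among called genes whose arms do not overlap, with H2O as circles, DMSO as squares and dilazep as triangles. The dilazep arrays spread from 7.29 to 9.08 for SLC30A4 and only from 13.59 to 13.69 for HMGCS1.

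Genes of hormones and transport were among the largest rises. DIO3, the deiodinase that inactivates thyroid hormone, was at 4.79, 5.31, 4.82 and 5.68 on the H2O and DMSO arrays and at 8.13, 8.18 and 8.06 on the dilazep arrays. Its probe was detected on 2 of the 4 vehicle arrays. It rose by 2.97 (SE 0.22, limma adjusted p = 0.00013), against 0.61 in LNCaP-abl (adjusted p of the difference = 0.00022). SLC30A4, a zinc exporter, was at 4.96 to 5.49 on the vehicle arrays and at 7.29, 7.74 and 9.08 on the dilazep arrays. Its probe was detected on 1 of the 4 vehicle arrays. The arms did not overlap, and replicate 4 lay far above the other dilazep arrays. The change of 2.89 (SE 0.4, adjusted p = 0.00138) was 2.37 without that array. Replicate 4 was also the highest for PTGR2, a prostaglandin reductase (10.33, 10.65 and 11.51), for RRAGC, a GTPase of amino acid sensing (7.23, 7.36 and 8.8), and for the transcription factor KLF6 (6.61, 6.82 and 7.85). Their changes of 2.03, 2.04 and 1.85 became 1.69, 1.54 and 1.47 without it, and all 3 were still called. The probes of RRAGC and KLF6 were detected on 3 and 2 of the 4 vehicle arrays. A second PTGR2 probe rose by 0.44.

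Of 36 trace metal genes tested, 13 were called higher (36.1%) and 4 lower (11.1%), against 24.0% and 19.4% of all genes. HMOX1, the haem oxygenase that frees iron, rose by 1.79 (SE 0.13, limma adjusted p = 0.00014), from 6.39 to 6.68 on the vehicle arrays to 8.1 to 8.57. FTL, the ferritin light chain that stores iron, rose by 1.06, ACO1, which becomes an iron regulatory protein when iron is scarce, by 0.99, and the metallothionein MT1H by 0.9. Of the selenoprotein and thyroid hormone genes, 10 of 22 were called higher (45.5%) and 4 lower (18.2%). SEPHS2, which makes the selenium donor for selenoproteins, rose by 1.04. For SELENOP, the secreted selenium carrier, the probe used gave -1.71 while a second probe gave 0.51, both called, so its direction depends on the probe.

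Of 34 glucose genes tested, 13 were called higher (38.2%) and 6 lower (17.6%), against 24.0% and 19.4% of all genes. ENO2, the neuronal enolase of glycolysis, was at 6.91 to 7.13 on the vehicle arrays and at 9.88, 9.89 and 9.69 on the dilazep arrays. It rose by 2.79 (SE 0.09, limma adjusted p = 9.8e-06), against 0.58 from a vehicle level of 10.4 in LNCaP-abl. ALDOC, an aldolase, rose by 1.75, and PGM1, which joins glycogen to glycolysis, by 1.16. SLC16A14, of the monocarboxylate carrier family, fell by 1.11. ENO2 also marks neuroendocrine cells, and in the list of neuropeptides and granins that holds it 3 of 10 genes were called higher and 3 lower. NMU, a neuropeptide, fell by 3.09 (SE 0.09, adjusted p = 7.3e-06), from 10.28 to 10.4 on the vehicle arrays to 7.2 to 7.35, without overlap. The peptide galanin, GAL, fell by 2.07, while PCSK1N, an inhibitor of prohormone cleavage, rose by 0.75, with its probe detected on 3 of the 4 vehicle arrays.

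ID1 and ID3, inhibitors of differentiation factors and targets of bone morphogenetic proteins, rose. ID1 was at 6.56 to 6.86 on the vehicle arrays and at 9.23, 9.25 and 8.76 on the dilazep arrays, which did not overlap. Its rise was 2.36 (SE 0.16, limma adjusted p = 9.3e-05), and that of ID3 was 1.59. The co-receptor TGFBR3 rose by 1.01, and BMPR1B, a receptor of the same pathway, fell by 0.93. In the whole list, 7 of 23 genes were called higher (30.4%) and 2 lower (8.7%), against 24.0% and 19.4% of all genes. GRB10, an adaptor that restrains insulin receptor signalling, rose by 2.06 (SE 0.1, adjusted p = 3.5e-05), from 8.74 to 8.9 on the vehicle arrays to 10.72 to 10.96. Its other probes gave 1.65, called, and 0.13, not called. In LNCaP-abl the change was 0 from a vehicle level of 11.51, and the difference was 2.08 (adjusted p = 4.6e-07).

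Some genes crossed the detection limit. Of 12393 genes with a named probe, 52 were detected on all dilazep arrays and no vehicle array, and 106 showed the reverse. At a detection p under 0.01 these counts were 66 and 93. For such genes the dimmer arm gives only a bound, set by the lowest detected signal of each array. IQCN, a calmodulin-binding protein, was at least 3.65-fold higher with dilazep, TMEM140, a membrane protein, at least 3.49-fold, and HSD17B14, a steroid dehydrogenase, at least 3.01-fold. TRIM2, a ubiquitin ligase, was at least 2.43-fold lower, RIN2, a regulator of RAB5, at least 2.66-fold lower, and the laminin chain LAMA1 at least 2.95-fold lower.

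Sterol synthesis had the largest share of rises of any list with at least 15 genes tested. Of 24 genes, 20 were called higher (83.3%) and 1 lower (4.17%), against 24.0% and 19.4% of all genes. Their median change was 1.11, against 0.05 over all genes. HMGCS1, which makes the precursor of mevalonate, was at 10.14 to 10.38 on the vehicle arrays and at 13.59, 13.69 and 13.67 on the dilazep arrays, a change of 3.37 (SE 0.1, limma adjusted p = 7.3e-06). MVD, LSS and FDPS, enzymes of later steps, rose by 2.37, 2.24 and 2.16, and 2 other LSS probes by 1.15 and 0.9. Other lipid genes rose as well. ACSS2, which makes acetyl-CoA from acetate, gave 1.97, and 2.01 and 0.99 through 2 other probes. LPIN1, a phosphatidate phosphatase, rose by 1.92, from 9.58 to 9.99 to 11.63 to 11.78. Of phospholipid synthesis genes, 9 of 21 were called higher (42.9%) and 2 lower (9.52%). PCYT2, of phosphatidylethanolamine synthesis, rose by 1.2. Fatty acid oxidation and peroxisome genes, with 10 of 38 higher and 5 lower, lay near the shares of all genes.

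Most subunits tested of the V-ATPase, the proton pump that acidifies lysosomes, were called higher. They numbered 12 of 18 (66.7%, against 24.0% of all genes), with 6 not called and none lower (0 of 18). Changes ran from 0.03 to 1.23, with a median of 0.58. With the replicate block, 9 were called higher. ATP6V0A1, a membrane subunit, rose by 1.23 (SE 0.11, limma adjusted p = 0.00023), from 9.32 to 9.7 on the vehicle arrays to 10.73 to 10.84. The accessory subunit ATP6AP1 rose by 0.81. ATP6V0E1 rose by 0.7, while a second probe gave 0.4 and was not called.

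An E-box that many lysosomal genes share, TCACGTG, was searched on both strands of promoter windows. A window runs from 250 bases before to 50 bases after the gene's start in RefSeq, build GRCh38.p14. The letters stood in 4 of 12 subunits with a window and in 6.07% of all 9112 tested genes with one. Of the 553 genes with a match, 31.6% were called higher and 16.5% lower, against 24.5% and 19.6% of all genes with a window. Other motifs were searched as well. The sterol element core stood in 1 of 22 sterol genes (4.55%) and in 1.06% of all genes. Of the 97 genes with it, 34% were called higher and 13.4% lower. An E2F site stood in 16.4% of mitosis genes and 8.65% of all genes, and in 8.04% of genes called lower by at least 1. The windows of ATP6V0D1, chr16:67481108-67481407 (- strand), and ATP6V0B, chr1:43974710-43975009 (+ strand), are shown because these subunits rose most among those with a match. They were chosen after their values were seen, and capitals mark the E-box.
ATP6V0D1: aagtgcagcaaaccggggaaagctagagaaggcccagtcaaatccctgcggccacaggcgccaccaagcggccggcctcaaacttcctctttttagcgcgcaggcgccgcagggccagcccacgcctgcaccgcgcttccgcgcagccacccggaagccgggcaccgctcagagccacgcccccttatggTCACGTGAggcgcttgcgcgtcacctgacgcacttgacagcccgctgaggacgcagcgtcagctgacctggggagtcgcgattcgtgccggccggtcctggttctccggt
ATP6V0B: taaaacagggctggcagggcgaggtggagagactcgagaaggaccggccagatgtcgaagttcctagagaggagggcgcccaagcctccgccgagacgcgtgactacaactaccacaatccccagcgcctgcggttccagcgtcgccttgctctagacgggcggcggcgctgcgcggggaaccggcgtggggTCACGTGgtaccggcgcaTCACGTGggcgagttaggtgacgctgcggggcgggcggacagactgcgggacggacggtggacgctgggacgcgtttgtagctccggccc
In ATP6V0D1 the 2 matches, at -60 and -59 from the start, overlap and lie on opposite strands. In ATP6V0B they are apart, at -58 and -40. A match describes the letters of the window and shows no binding. ATP6V0D1 rose by 0.7, from 9.55 to 9.83 on the vehicle arrays to 10.27 to 10.36 (limma adjusted p = 0.00155). ATP6V0B rose by 0.56 (adjusted p = 0.00288), and a second probe of it gave 0.4 and was not called.

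RAB GTPases, which direct vesicle traffic, were called higher in 19 of 48 cases (39.6%) and lower in 4 (8.33%). Of all genes, 24.0% were called higher and 19.4% lower. RAB7A of late endosomes rose by 0.97 (SE 0.09, limma adjusted p = 0.00038), from 10.9 to 11.13 on the vehicle arrays to 11.97 to 12.03. RAB26, of secretory granules, rose by 1.08, and RAB5B, of early endosomes, by 0.72. Of 151 TMEM genes, a family defined by its symbol, 54 were called higher (35.8%) and 18 lower (11.9%). TMEM106B, a lysosomal membrane protein, rose by 1.6, and by 1.03 through a second probe. CLCN7, the lysosomal chloride and proton exchanger, rose by 1.15. Integrin and matrix genes were called higher in 15 of 32 cases (46.9%) and lower in 4 (12.5%). SDC4, a cell surface proteoglycan, rose by 1.44 (adjusted p = 0.00046), against -0.01 in LNCaP-abl (adjusted p of the difference = 0.00037).

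**Figure D3:**
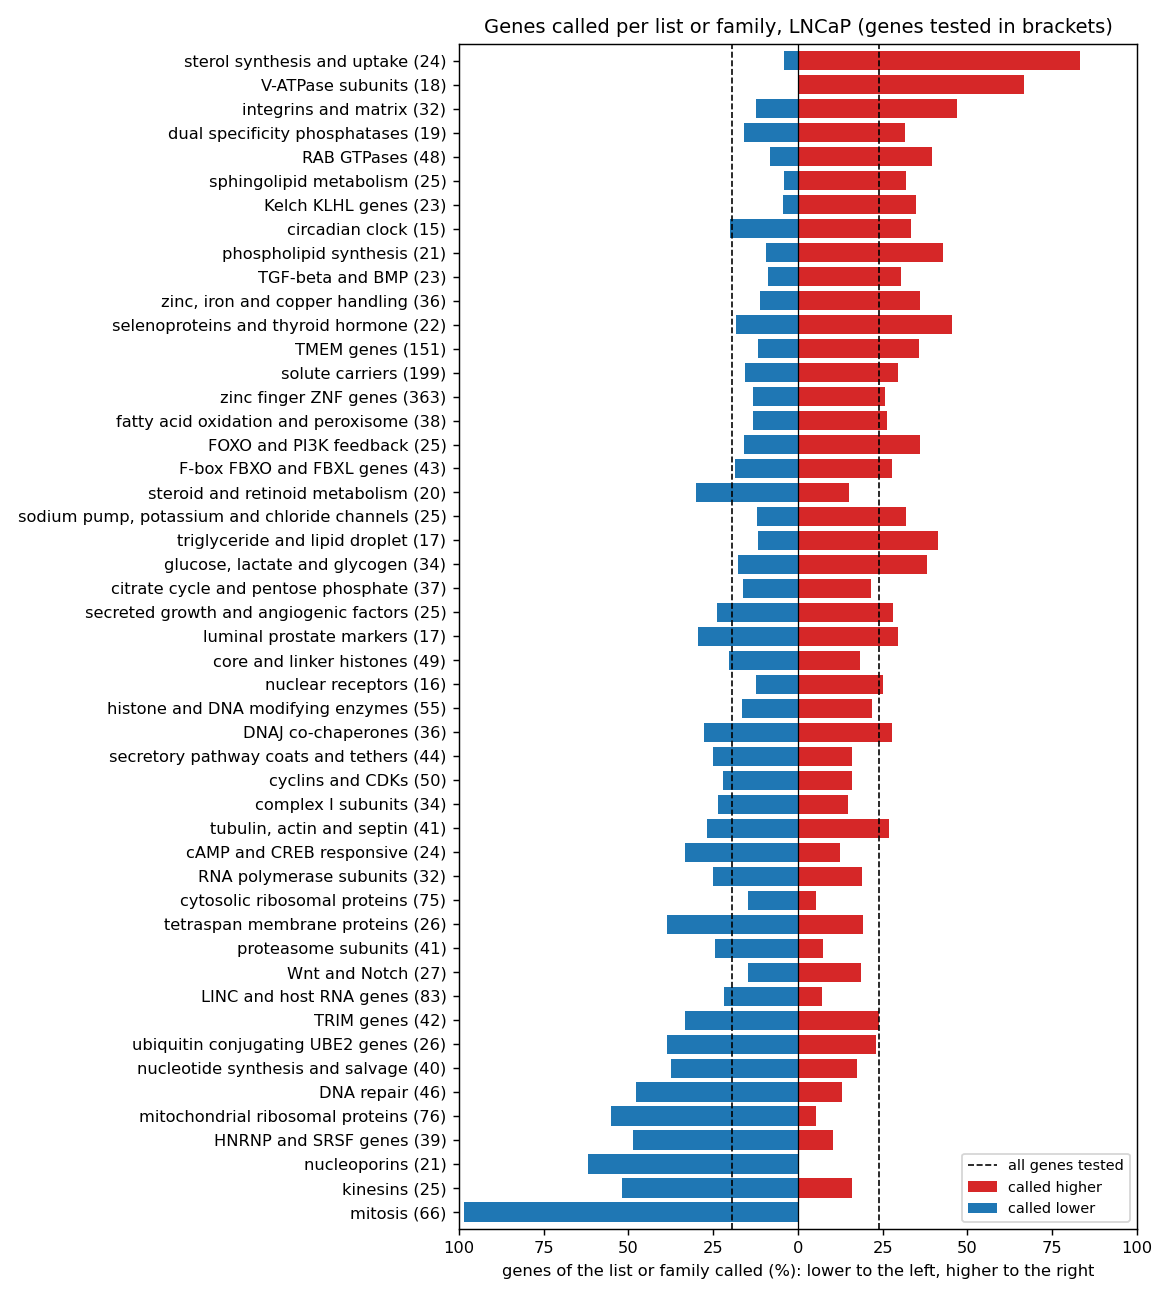
Share of the tested genes of each list or family with at least 15 tested genes that was called lower (left) or higher (right) with dilazep in LNCaP, ordered by median change. Dashed lines mark all genes tested, at 24.0% higher and 19.4% lower. Sterol synthesis has 83.3% higher, V-ATPase subunits 66.7%, and mitosis 98.5% lower.

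Genes of cell division fell together. Of 66 mitosis genes tested, 65 were called lower (98.5%, against 19.4% of all genes) and none higher (0 of 66). Changes ran from -2.66 to -0.34, with a median of -1.25. In bulk RNA, fewer cells of a type and less RNA per cell cannot be told apart. PTTG1, the securin that holds back the separation of sister chromatids, was at 12.06 to 12.15 on the vehicle arrays and at 10.08, 10.09 and 10.08 on the dilazep arrays. It fell by 2.01 (SE 0.08, limma adjusted p = 2.2e-05), or 4.03-fold. MAD2L1, of the spindle checkpoint, was at 11.35 to 11.93 and 9.47, 8.87 and 8.26, with replicate 4 the lowest. Its change was -2.66, or -2.36 without that array, and -1.6 through a second probe. The changes of cyclins CCNA2, CCNB2 and CCNB1 were -1.89, -1.62 and -1.26.

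Several of these falls were smaller in LNCaP than in LNCaP-abl. The difference between the lines was 1.4 for PTTG1, 1.32 for MAD2L1, 1.03 for CCNA2, 2.8 for the ubiquitin-conjugating enzyme UBE2C and 2.58 for the motor protein KIF11. Their adjusted p-values ran from 7e-08 for UBE2C to 0.0204 for MAD2L1. DNA repair genes were called lower in 22 of 46 cases (47.8%) and higher in 6 (13%), against 19.4% and 24.0% of all genes. FANCI, of the Fanconi pathway, fell by 1.14, against -4.03 in LNCaP-abl (adjusted p of the difference = 1.6e-07).

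Promoters of mitotic genes often hold a cell cycle homology region (CHR) and CCAAT boxes. The letters TTTGAA (CHR) stood on either strand in 69.1% of 55 mitosis genes with a window and in 9.81% of all 9112 genes. CCAAT stood in 69.1% and 37.7%, and both together in 52.7% and 4.35%. The motifs can share an end base. Among 336 genes called lower by at least 1, 17.3% held both, and among 367 called higher by at least 1, 3.54%. Of the 396 genes with both, 38.1% were called lower and 16.9% higher. Windows are shown for 3 mitosis genes with the largest falls among those holding both motifs: MAD2L1, chr4:120066799-120067098 (- strand), DLGAP5, chr14:55191536-55191835 (- strand), and CENPA, chr2:26785806-26786105 (+ strand). They were chosen after their values were seen, and capitals mark both motifs.
MAD2L1: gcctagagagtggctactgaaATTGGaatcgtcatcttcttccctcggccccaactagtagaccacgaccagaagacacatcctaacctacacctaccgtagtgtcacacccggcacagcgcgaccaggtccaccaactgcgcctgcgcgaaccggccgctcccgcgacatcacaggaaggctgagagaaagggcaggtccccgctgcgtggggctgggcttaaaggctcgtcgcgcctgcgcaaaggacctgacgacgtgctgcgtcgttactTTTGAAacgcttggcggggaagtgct
DLGAP5: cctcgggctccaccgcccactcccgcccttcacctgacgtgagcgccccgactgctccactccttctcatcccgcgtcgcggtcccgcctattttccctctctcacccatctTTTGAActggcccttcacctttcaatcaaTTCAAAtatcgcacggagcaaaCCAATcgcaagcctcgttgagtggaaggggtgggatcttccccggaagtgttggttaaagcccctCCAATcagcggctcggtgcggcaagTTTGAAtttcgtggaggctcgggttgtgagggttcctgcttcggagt
CENPA: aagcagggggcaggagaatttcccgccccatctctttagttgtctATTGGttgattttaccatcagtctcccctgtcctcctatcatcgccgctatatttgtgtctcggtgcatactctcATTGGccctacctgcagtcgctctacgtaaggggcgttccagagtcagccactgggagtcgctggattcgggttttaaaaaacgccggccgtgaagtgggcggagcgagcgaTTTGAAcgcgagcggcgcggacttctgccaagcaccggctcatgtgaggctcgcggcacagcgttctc
CHR matches begin at 24 bases from the start in MAD2L1, at -138, -109 and 3 in DLGAP5, and at -18 in CENPA. DLGAP5, which stabilises spindle microtubules, was at 10.07 to 10.33 on the vehicle arrays and at 8.05 to 8.31 on the dilazep arrays, and fell by 2.03 (limma adjusted p = 5.1e-05). CENPA, the histone of centromeres, fell by 1.68 (adjusted p = 6.7e-05), from 8.73 to 8.95 to 7.02 to 7.23.

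Genes of RNA handling and of the mitochondrial ribosome fell often, mostly by small amounts. Of 76 mitochondrial ribosomal proteins, 42 were called lower (55.3%) and 4 higher (5.26%), with a median of -0.31. Of all genes, 19.4% were called lower and 24.0% higher. Without dilazep replicate 4, 35 were called lower, and with the replicate block 24. MRPS18C fell by 1.21 (SE 0.1, limma adjusted p = 0.00022), from 11.82 to 12.06 on the vehicle arrays to 10.65 to 10.86, and MRPL51 fell by 0.75. Cytosolic ribosomal proteins moved less often, with 11 of 75 called lower (14.7%) and 4 higher (5.33%), both below the shares of all genes. RPL36A, the one with the lowest change, fell by 1.67. Of 21 nucleoporins, 13 were called lower (61.9%) and none higher (0 of 21). NUP93, of the inner ring of the nuclear pore, fell by 1.04, from 12.77 to 13 to 11.8 to 11.89. Of 39 HNRNP and SRSF genes, 19 were called lower (48.7%) and 4 higher (10.3%). HNRNPC, which binds nascent transcripts, fell by 1.01, and the splicing factor SRSF10 fell by 0.83.

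Small non-coding RNAs did not move one way. Of 122 small nucleolar RNAs, 37 were called lower and 8 higher, with a median of -0.25. Together 36.9% were called, against 43.5% of all genes, of which 19.4% were lower and 24.0% higher. Of SNORD genes, which guide methylation, 21 of 68 were called lower, and of SNORA genes, which guide pseudouridylation, 16 of 53. Their median vehicle levels were low, at 6.08 and 6.03. SNORD96B was detected on every vehicle array and on no dilazep array, and was at least 2.72-fold lower. All 4 Y RNAs, small RNAs bound by the Ro protein, were called higher, with a median of 0.95, and 5 of 12 small nuclear RNAs were called higher and none lower (0 of 12). Y RNAs and small nuclear RNAs were singled out after their values were seen, and near-identical copies may share probes. RNY1 was at 6.67 to 7.04 on the vehicle arrays and at 7.74, 7.77 and 8.23 on the dilazep arrays (change 1.03, limma adjusted p = 0.00193). RNY3 and RN7SK were highest on dilazep replicate 4, at 9.71 and 9.23. Their changes of 0.87 and 1.1 were 0.53 and 0.71 without that array, and both were still called.

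Of 17 luminal prostate markers tested, 5 were called higher and 5 lower (29.4% each, against 24.0% and 19.4% of all genes), with a median of 0.04. Of the markers of other cells, 3 of 10 basal and mesenchymal, 1 of 9 fibroblast and 5 of 8 immune genes had a probe with a gene name. Of these, 3, 1 and 4 passed the detection filter, and the markers without such a probe were not assessed. GATA2, a transcription factor of prostate cells, was at 8.43 to 8.57 on the vehicle arrays and at 8.68, 8.64 and 8.43 on the dilazep arrays, which overlap. Its change of 0.06 (SE 0.1, limma adjusted p = 0.651) was not called, and in LNCaP-abl it was -0.93 (adjusted p of the difference = 0.00032). KLK3, the prostate-specific antigen, gave -0.33 (adjusted p = 0.123) and HOXB13, a prostate homeobox factor, 0.11 (adjusted p = 0.458), and neither was called. FOLH1, the prostate-specific membrane antigen, rose by 0.47, and by 1.1 through a second probe. STEAP2, a metal reductase of prostate epithelium, rose by 0.69, and by 0.86 through a second probe. PMEPA1, an inhibitor of TGF-beta signalling, rose by 0.61, but its other probes gave -0.39 and 0.17 and were not called. KRT8, a keratin of simple epithelia, rose by 0.43, but was not called against DMSO alone. KRT18, a keratin of the same kind, fell by 0.59, and by 0.83 through a second probe. Neither keratin was called with the replicate block. ACP3, prostatic acid phosphatase, fell by 0.84. SLC29A2, an equilibrative nucleoside transporter, rose by 0.6 (adjusted p = 0.00264), from 8.97 to 9.2 to 9.58 to 9.74. SLC29A1 was not analysed here.

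Some genes with large falls are known from prostate or other epithelium, and they are named here for the size of their change and not as a list. TRPM8, a cold-sensing calcium channel of prostate epithelium, was at 8.36 to 8.75 on the vehicle arrays and at 5.22 to 5.78 on the dilazep arrays. It fell by 3.03 (SE 0.15, limma adjusted p = 3.8e-05), with -1.79 through a second probe, and the probe used was detected on 2 of the 3 dilazep arrays. MSMB, a major protein of prostate secretion, fell by 3.26, and 2 other probes gave -2.93 and -2.86. The MSMB probe used was detected on 1 of the 3 dilazep arrays, so the size of its fall is uncertain. TM4SF1, a tetraspan protein of the cell surface, fell by 3.63 (adjusted p = 7.3e-06), from 9.52 to 9.71 on the vehicle arrays to 5.84 to 6.21. By the probe used, KLF4, an epithelial transcription factor, was at least 5.34-fold lower. A second probe gave a smaller log2 change of -1.4, so the bound holds for the probe used only. KRT19, another keratin of simple epithelia, was at least 4.53-fold lower. UGT2B15, which inactivates androgens, fell by 1.93. By the probe used, RNLS, an amine oxidase, was at least 8.92-fold lower. Its 2 other probes gave smaller log2 changes of -2.57, called, and -0.32, not called, so this bound too holds for the probe used only.

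The 2 lowest changes were those of TRIM49D1 and TRIM49D2, related genes of chromosome 11, and 4 other genes of that chromosome were among the 20 largest falls. TRIM49D1, of the tripartite motif family, was at 9.89, 9.99, 9.55 and 9.75 on the H2O and DMSO arrays and at 5.79, 5.43 and 5.47 on the dilazep arrays. It fell by 4.23 (SE 0.12, limma adjusted p = 7.3e-06), or 18.8-fold. TRIM49D2 gave -3.82, with its probe detected on 1 of the 3 dilazep arrays, so the size of its fall is uncertain. The changes of TRIM49C, TRIM48 and TRIM51 were -3.03, -2.99 and -2.89, and that of the pseudogene GRM5P1, which is no TRIM gene, was -3.07. For each of these 6 genes all dilazep arrays lay below all vehicle arrays. The TRIM49 genes are near-identical copies, and TRIM49D1 and TRIM49D2 are neighbours in RefSeq's order, so probes may read each other's RNA and these falls are not independent. Of all 42 TRIM genes tested, 14 were called lower (33.3%) and 10 higher (23.8%), against 19.4% and 24.0% of all genes. The lowest change of another tested TRIM gene of chromosome 11 was -0.82, of TRIM3. In LNCaP-abl the changes of the 6 genes ran from -0.22 for TRIM49D1 to 0.58 for TRIM49C, and the differences between the lines from -4 for TRIM49D1 to -3.11 for GRM5P1. Their vehicle levels in LNCaP-abl were 5.03 for TRIM49D2, which was detected on none of its arrays, to 7.61 for TRIM51.

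**Figure D4:**
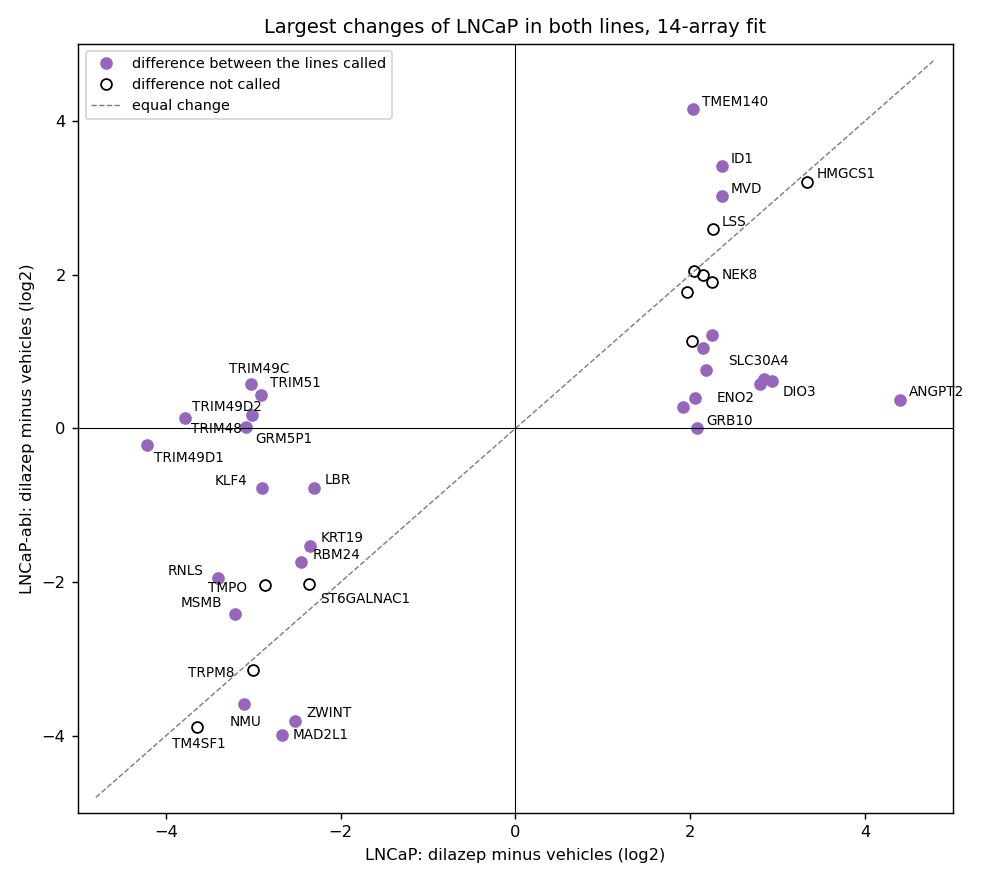
Change with dilazep (log2) in LNCaP (horizontal axis) and in LNCaP-abl (vertical axis) for 39 of the 40 genes with the largest changes in LNCaP, from the fit of all 14 arrays. Filled points have a called difference between the lines. The TRIM genes and GRM5P1 lie between -0.22 and 0.58 on the vertical axis, and HMGCS1, TM4SF1 and TRPM8 near the line of equal change. The TM4SF1 probe was detected on no LNCaP-abl dilazep array, and the TRPM8 probe on 2 dilazep arrays of each line. Whether the falls of TM4SF1 and TRPM8 are of equal size is therefore uncertain.

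Over all genes, the response differed between the lines for 4056 of 11983 (33.8%), with 2149 more positive and 1907 more negative in LNCaP. Genes called in opposite directions in the lines, with a called difference, numbered 391, of which 165 were higher in LNCaP and lower in LNCaP-abl. ARRDC3, an arrestin-like adaptor detected on 2 of the 3 dilazep arrays, fell by 1.17 in LNCaP, against 0.74 in LNCaP-abl (limma adjusted p of the difference = 0.00043). SEC24D, of the secretory coat, fell by 0.68, against 0.89 (adjusted p of the difference = 7.3e-06). SLC7A5, a carrier of large amino acids, was at 6.05 to 6.15 on the vehicle arrays of LNCaP and at least 1.72-fold lower with dilazep. In LNCaP-abl, from a vehicle level of 11.2, its change was 0.42.

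Chromosomes differed in how many of their genes moved, and those given here were singled out after their values were seen. Chromosome 22 had 32.8% of 287 genes called higher and 12.2% lower, and chromosome 19 had 24.6% of 824 higher and 11.2% lower. Chromosome 4 had 21.2% of 406 higher and 30.3% lower, and chromosome 13 had 15.2% of 198 higher and 29.8% lower. Median changes were 0.16, 0.11, -0.1 and -0.12 in that order.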

How the data were processed

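Gene expression was measured on Illumina BeadChips, 14 arrays of 2 prostate cancer lines, of which the 7 LNCaP arrays are described here. The authors deposited a signal intensity and a detection p-value per probe and array, per the file headers, for 47422 probes, of which 99 are identical second listings. Their processed table, also deposited, gives log2 values for 22912 probes. Lumi is named in the submitters' processing notes, and the transform is not given in the sources used here. Columns were matched to samples by title.

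Gene symbols came from the platform annotation, updated through Entrez identifiers: of the 22912 probes, 16501 had 1 symbol, 5 several and 6406 none. Intensities were background corrected by normexp from the detection p-values, quantile normalized and log2 transformed with offset 16 (neqc, limma 3.58.1, R 4.3.3). Probes with a detection p-value under 0.05 on 2 or more arrays were kept (21549), and the brightest represented its gene. Group means were fitted with lmFit and eBayes, and the contrast tested two-sided with Benjamini-Hochberg adjustment over 11314 genes. All adjusted p-values printed are limma's. The code was tested on simulated data. Differences between the lines come from a fit of all 14 arrays. Promoter windows are RefSeq's (GRCh38.p14). Plots used matplotlib 3.10.9 under Python 3.11.15.

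The members, 33 gene lists and 24 symbol families were chosen with earlier results of these data known. The 262 genes open to naming were the 20 largest rises and falls, the genes of smallest p per list or family (up to 4), the brightest called genes, genes detected in 1 arm, prostate and transporter genes, and the 5 of smallest p between vehicles. Replicate numbers come from the sample titles. Deviations of same-numbered arrays correlated at 0.05, 0.02 and -0.03. No shared deviation was seen, but with so few arrays this cannot exclude that the numbers pair them. Alternatives were other normalizations, background corrections, filters, offsets, probe rules, vehicles, variance models, the replicate block, the authors' values and leaving out each array.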

Additional observations from a re-analysis of the deposited data

Results flagged for a closer look

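By limma's test of the difference itself, at an adjusted p under 0.05, the response to dilazep differed between the lines for 28 of the 39 genes with the largest changes in LNCaP and the same probe in both fits. Values are the LNCaP change minus the LNCaP-abl change on the log2 scale, and serum cannot be told apart from line.

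Changes were more positive in LNCaP for genes that rose there, ANGPT2 (4.04), DIO3 (2.33), ENO2 (2.22), SLC30A4 (2.2), GRB10 (2.08), PTGR2 (1.65), HSD17B14 (1.65), IQCN (1.43), AHI1 (1.1) and UAP1L1 (1.02). They were less positive for TMEM140 (-2.12), ID1 (-1.04) and MVD (-0.65). The probes used for ANGPT2, HSD17B14 and TRIM49D2 were detected on no LNCaP-abl array (0 of 7). Those for DIO3 and IQCN were detected on none of its 4 vehicle arrays. In LNCaP, IQCN, TMEM140 and HSD17B14 were detected on none of the 4 vehicle arrays.

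Changes were more negative in LNCaP for genes that fell there, TRIM49D1 (-4), TRIM49D2 (-3.91), TRIM49C (-3.61), TRIM51 (-3.36), TRIM48 (-3.18), GRM5P1 (-3.11), KLF4 (-2.12), LBR (-1.54), RNLS (-1.45), KRT19 (-0.82), MSMB (-0.8) and RBM24 (-0.72). The probes used for RNLS and KRT19 were detected on every vehicle array and no dilazep array of either line. By these probes both lines end at background, and their values carry no size of a difference in fall. In LNCaP under dilazep, the probe used for KLF4 was also undetected, and those for LBR, MSMB and TRIM49D2 were detected on 1 of 3 arrays. Through other probes, KLF4 was detected on 3 and RNLS on 2 of these dilazep arrays. Changes were less negative for MAD2L1 (1.32), ZWINT (1.28) and NMU (0.47). Second probes of UAP1L1 (0.66), PTGR2 (0.44), LBR (-0.82) and ZWINT (-0.58) gave smaller changes in LNCaP.

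Probes with no gene name entered none of the comparisons above. Of 6573 kept, 1541 (23.4%) were called with dilazep in LNCaP by limma, 714 higher and 827 lower. These calls come from a separate fit of all 21549 kept probes, with its own adjustment. In the fit of genes, 43.5% were called, 24.0% higher and 19.4% lower.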

How the results depend on the processing

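The counts of genes called higher and lower stayed within 1.5 times of 2721 and 2199 under every alternative run except the replicate block. That fit, with fewer residual degrees of freedom, called 1757 higher and 1360 lower. Leaving out 1 array each gave 2057 to 2419 higher and 1733 to 2015 lower. Genes called higher by at least 1 numbered 170 without background correction, 295 with offset 50 and 150 in the authors' processed values, against 453, and genes called lower by at least 1 numbered 154, 266 and 112, against 429. Leaving out 1 array gave 378 to 524 and 390 to 493. No alternative run for the vehicles called a gene between them. For the difference between the lines, alternatives chosen after seeing the data gave 3423 to 4473 genes, against 4056. Of 262 named genes, 16 lost their call with the replicate block, a paired fit. In the authors' processed values, the changes of 139 of 256 called named genes differed by more than 1.5 times, with a median ratio of 0.647 to the changes given here. Median scaling moved the median of all genes from 0.05 to 0.1.

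Signs turned for DNAJB6 as the mean over its probes (0.24), for HOXB13 (-0.02), PRDM11 (0) and ZC3H11A (0.03) against DMSO alone, and for CDK17 (0.28) and CRX (0.36) against H2O alone. CRX was 0.02 under the replicate block, and 0.03 when dilazep replicate 4 was left out. MIR202 was -0.01 with offset 50, -0.44 against DMSO alone and -0.09 under the replicate block, and ranged from -0.07 to 0.09 when 1 array was left out, with -0.01 without DMSO replicate 3. For DNAJB6 the probe used gave -0.6 and a second probe 1.08, both called, so its direction depends on the probe. The causes of the other turns were not tested. Dim genes have compressed or bounded folds, and each vehicle had only 2 arrays.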

Other observations

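The genes with the smallest p-values between the vehicles were dim, and limma called none of them (0 of 11314 genes). PRDM11, of the PR domain family, was at 4.86 and 4.86 on the H2O arrays, at 6.07 and 5.91 on the DMSO arrays and at 5.81 to 6.11 on the dilazep arrays. CDK17, a cyclin-dependent kinase, was at 4.84 and 4.79 with H2O, at 5.85 and 5.83 with DMSO and at 4.99 to 5.25 with dilazep. ZC3H11A, an RNA export factor, was at 6.04 and 5.99 with H2O, at 5.01 and 4.97 with DMSO and at 4.8 to 5.23 with dilazep.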
